A study of Mus musculus with 217 samples.

Results

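The clotting and fibrinolysis regulators described here are 9 genes, chosen by name from the 52550 genes in the count files: F3 (tissue factor) and its inhibitor Tfpi, the anticoagulant receptors Thbd (thrombomodulin) and Procr (endothelial protein C receptor), Vwf (von Willebrand factor) and Adamts13, the plasminogen activators Plat (tissue type) and Plau (urokinase), and the urokinase receptor Plaur. All 9 were found in the files under their symbols, and the rule that lists them uses no measured value, although the list was drawn up with earlier results of these data known. RNA on HA-tagged ribosomes was pulled down from homogenates of whole brain, lung and heart of adult RiboTagEC mice, which carry Cdh5CreERT2/+; Rpl22HA/+ on the C57BL/6J strain, so that the tag is made only in cells in which the Cdh5 (VE-cadherin) promoter drove the tamoxifen-activated Cre, chiefly endothelial cells (ECs). All groups, 0 hr included, share this genotype and the tamoxifen, which was given by gavage in 4 doses of 5 mg on alternate days, at an age of 4 to 6 weeks. The 6, 24, 48, 72 and 168 hr groups were taken at those times after 1 intraperitoneal dose of 10 mg/kg lipopolysaccharide (LPS, a bacterial endotoxin), and the 0 hr groups are labelled as controls. After the sequencing runs of each library were summed, 80 of 98 libraries had at least 3% of their reads on genes and were kept, which left 5, 5, 4, 6, 4 and 4 libraries at 0, 6, 24, 48, 72 and 168 hr in brain, the same numbers in heart, and 4, 4, 2, 6, 4 and 4 in lung.

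Clotting starts when tissue factor, normally kept away from flowing blood, binds coagulation factor VII, and TFPI inhibits the complex they form. Resting ECs hold clotting in check through thrombomodulin, which turns thrombin from a clotting enzyme into an activator of protein C, and through the endothelial protein C receptor, which presents protein C to that complex. ECs also store von Willebrand factor, which tethers platelets and is cut by ADAMTS13, and release tissue plasminogen activator, which with urokinase makes plasmin, the enzyme that dissolves fibrin, while the urokinase receptor holds urokinase on the cell surface. Endotoxin is known to shift this balance in vessels toward clotting.

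Counts on genes ran from 284457 to 43417945 per kept library, and the typical brain library had 60.6% of its reads on genes, against 28.6% of lung and 63.4% of heart reads (medians). The labels number the replicates without naming the animals, so p-values measure the spread between libraries. Library series 1, 2 and 4, read from the patterns of the file names, are a technical term in each fit. Series 4 has libraries at 24, 48, 72 and 168 hr but none at 0 or 6 hr, so that series and time are partly confounded. At 24 hr each difference given within a series rests on 1 library of that time. The file name patterns were also read as the mouse of each library, with tissues of one mouse sharing a name. The labels do not explain these names, so the values given below with the mouse as a block rest on that reading. By it lung replicate 4 at 0 hr is the only library of its mouse. The block then fits that library exactly and takes it out of the comparisons with lung. Values with the block are therefore no separate check from leaving lung replicate 4 out. The single series 1 library at 6 hr stood apart in each tissue. Of 6 LPS-response genes picked after the data were seen (Sele, Icam1, Cxcl1, Lcn2, Ccl2 and Socs3), 6 lay below every other 6 hr library and 5 at or below the highest 0 hr library in brain replicate 6, and 6 and 3 did so in heart replicate 5. In heart, for example, Ccl2 stood at 4.34 CPM (read counts scaled by TMM to a common library size of 1000000) in replicate 5 and between 3566 and 5069 CPM in the other 4 libraries. Lung replicate 4 at 6 hr held 284457 counts with 3.40% of its reads on genes, so that its 0 counts bound a level only loosely, and replicates 1 and 2 at 6 hr had 6.93% and 8.12%, with 11248 and 7473 genes detected against 16200 to 19401 at 0 hr, while 3 of the 6 genes in replicate 4 were below the other libraries. Where these 3 libraries move a result named below across the threshold or by over 1.5 times, the value without them is given too. Lung replicate 4 at 0 hr also stood apart, with 56.2% of its reads on genes.

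The labelled tissues carried their markers. At 0 hr the 8 general EC genes summed to 1456 to 3009 CPM in brain, 6261 to 10877 CPM in lung and 8005 to 9395 CPM in heart. The 4 brain EC genes summed to 1737 to 3206 CPM in brain and at most 244 CPM elsewhere, the 4 heart EC genes to 20499.9 to 25311 CPM in heart and at most 1248 CPM elsewhere, and the 4 lung EC genes to 616 to 2153 CPM in lung and at most 466 CPM elsewhere. Genes of other cells were present too. Astrocyte genes summed to 870.5 to 4225 CPM, neuron genes to 1039.9 to 4290 CPM and choroid plexus genes to 221 to 907 CPM in brain, lung epithelial genes to 2211 to 9387 CPM in lung, and cardiomyocyte genes to 2660.4 to 5434 CPM in heart. Mural cell and fibroblast genes reached 2568 CPM (brain), mesothelial genes 90.5 CPM (heart), macrophage and monocyte genes 503 CPM (lung), neutrophil genes 203 CPM (lung) and platelet genes 26.7 CPM (lung). In such bulk libraries fewer cells of a type and less RNA per cell cannot be told apart.

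At 0 hr every member but Adamts13 was counted in all 3 tissues, and the levels of many members differed between tissues. F3 was far higher in brain than in lung or heart, Plau and Plaur were lowest in brain, Vwf was lower in brain than in heart, and Adamts13 counts were found almost only in brain. Between brain and lung 9 of 9 members differed, where 64.3% of the 17730 genes tested did. Between brain and heart 5 of 9 differed against 54.8% of genes, and between lung and heart 6 of 9 against 61.1%. Both of these counts lay near the share of all genes. The test was edgeR's quasi-likelihood F test with Benjamini-Hochberg adjustment over all genes tested and a threshold of 0.05, here and wherever an adjusted p is given. Over all genes tested, the libraries did not overlap for 44.5% of genes between brain and lung. This share was 53.8% between brain and heart and 43.5% between lung and heart. The median gene was 0.42 higher in brain than in lung on the log2 scale with TMM scaling (0.35 with RLE), and the lung minus heart median moved from -0.09 to 0.02 with RLE, without a change in any member's call.

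Per kilobase of exon, which makes genes comparable, Thbd was the most abundant member at 0 hr in each tissue, at 145 ± 70.0 CPM per kilobase in brain (SD, n = 5), 507 ± 407 in lung (n = 4) and 186 ± 19.7 in heart (n = 5). F3 came next in brain at 81.3 ± 22.4 CPM per kilobase followed by Plat at 27.4 ± 6.27, and the F3 and Plat libraries did not overlap, while those of Thbd and F3 did. Tfpi (10.9 ± 5.45), Procr (10.1 ± 1.60) and Vwf (9.43 ± 2.94 CPM per kilobase) lay within each other's spread in brain, as did Plaur (1.63 ± 0.703) and Plau (1.14 ± 0.238). In lung Plaur (37.2 ± 19.4) and Vwf (34.3 ± 42.6 CPM per kilobase) followed Thbd and overlapped, ahead of Plat (9.49), Plau (8.46), Procr (4.68), Tfpi (3.42) and F3 (2.99), each of which overlapped the next. In heart Vwf (41.0 ± 8.33) followed Thbd, then Plat (17.3 ± 2.54) and Plau (14.5 ± 0.988), Tfpi (10.3 ± 2.35) and Plaur (8.72 ± 1.24), Procr (5.97 ± 1.75) and F3 (1.17 ± 0.296 CPM per kilobase), where Plat overlapped Plau, Tfpi overlapped Plaur and Plaur overlapped Procr. Adamts13 was last in each tissue, at 0.123 CPM per kilobase in brain, 0.0134 in lung and 0 in heart.

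**Figure D1:**
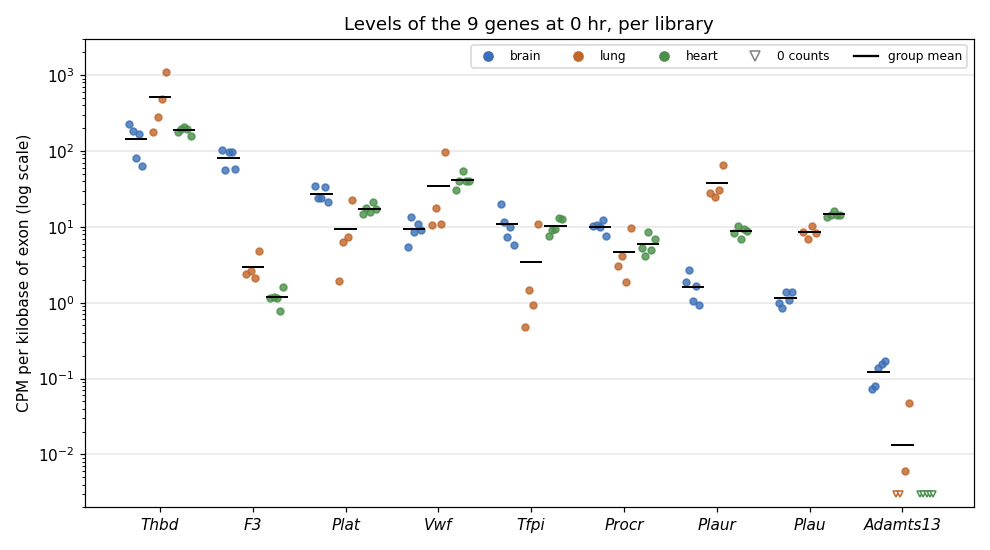
Level of each of the 9 genes at 0 hr in every library of brain (blue), lung (orange) and heart (green), as TMM-scaled CPM per kilobase of exon on a log axis, with the group mean as a black line and libraries with 0 counts as open triangles at the foot of the axis. The F3 mean is 81.3 in brain, 2.99 in lung and 1.17 in heart, while Thbd has the highest mean in all 3 tissues.

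F3, the cell-surface trigger of clotting (ENSMUSG00000028128.13, mm10 chromosome 3, 121723537 to 121735048, plus strand), stood at 257, 140, 241, 241 and 148 CPM in the 5 brain libraries at 0 hr. It stood at 6.09, 6.59, 5.39 and 12.2 CPM in lung and at 2.89, 3.02, 2.87, 1.98 and 4.08 CPM in heart. The lowest brain library lay above every lung library and the lowest lung library above every heart library. The level in brain was 26.4-fold that in lung (log2 4.72 ± 0.33 SE, adjusted p = 2.72e-08) and 66.1-fold that in heart (log2 6.05 ± 0.32, adjusted p = 8.69e-10), and lung exceeded heart 2.51-fold (adjusted p = 0.00115). The astrocyte list spanned 870.5 to 4225 CPM in these brain libraries against at most 22.1 CPM in lung and 356 CPM in heart, and its part in the F3 level was not tested.

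Tfpi, the inhibitor of tissue factor (ENSMUSG00000027082.15, chromosome 2, 84432855 to 84476775, minus strand), stood at 108, 64.0, 39.8, 54.6 and 31.7 CPM in brain, at 40.7, 50.1, 51.7, 70.6 and 68.5 CPM in heart, and at 2.61, 7.91, 5.15 and 59.2 CPM in lung. Only the lung library that stands apart, replicate 4, lay in the range of the other tissues. Brain was 3.63-fold (log2 1.86 ± 0.63, adjusted p = 0.0177) and heart 4.15-fold (adjusted p = 0.0152) above lung. Without lung replicate 4 these log2 differences grew to 3.27 and 3.29 (adjusted p = 1.08e-05 and 9.79e-06), and they missed the threshold without brain replicate 1 or lung replicate 2 or 3 for brain (log2 1.54 to 1.67, adjusted p = 0.0552 to 0.0681) and without lung replicate 2 or 3 for heart (1.68 to 1.83, adjusted p = 0.0564 to 0.0647). Brain and heart gave a log2 difference of -0.19 ± 0.56 (adjusted p = 0.795).

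Thbd, the thrombin receptor that starts protein C activation (ENSMUSG00000074743.4, chromosome 2, 148404466 to 148408188, minus strand, a single exon), reached 667, 1033, 1805 and 4046 CPM in lung at 0 hr. Brain libraries held 846, 688, 304, 625 and 234 CPM and heart libraries 666, 731, 760, 729 and 577 CPM, so that only the lowest lung library fell among them. Lung was 3.55-fold above brain (log2 difference of brain minus lung -1.83 ± 0.44, adjusted p = 0.00202) and 2.49-fold above heart (log2 1.32 ± 0.44, adjusted p = 0.0177). The second difference was lost without lung replicate 3 or 4 (log2 1.14 and 0.83, adjusted p = 0.0695 and 0.0702) and with the mouse as a block (0.64, adjusted p = 0.169). Procr (ENSMUSG00000027611.12, chromosome 2, 155751117 to 155755471, plus strand) stood at 15.5 to 24.6 CPM in brain, 3.75 to 19.9 CPM in lung and 8.41 to 17.4 CPM in heart. Brain exceeded lung 2.14-fold (log2 1.10 ± 0.39, adjusted p = 0.0235), a call lost without brain replicate 4 or lung replicate 1, 2 or 3 (log2 0.77 to 1.08, adjusted p = 0.0519 to 0.0877) and raised to 1.71 without lung replicate 4. Lung minus heart was -0.42 (adjusted p = 0.376) over all libraries, -1.01 without lung replicate 4 (adjusted p = 0.00883) and -1.06 with the mouse as a block (adjusted p = 0.0138), and brain minus heart moved from 0.68 (adjusted p = 0.118) to 0.74 with that block (adjusted p = 0.0241).

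Vwf (ENSMUSG00000001930.17, chromosome 6, 125546774 to 125686679, plus strand) stood at 490, 650, 865, 641 and 646 CPM in heart and at 87.9, 215, 136, 175 and 144 CPM in brain. No brain library reached the heart range, and heart was 4.60-fold higher (brain minus heart log2 -2.20 ± 0.52, adjusted p = 0.00199). Lung held 169, 283, 177 and 1574 CPM, where replicate 4 again stood alone. That library decided 2 calls. Brain minus lung was -1.72 with it (adjusted p = 0.0136) and -0.53 without it (adjusted p = 0.0933), and lung minus heart was -0.48 with it (adjusted p = 0.475) and -1.64 without it (adjusted p = 0.000159). With the mouse as a block, which also takes lung replicate 4 out of the comparison, the values were -0.39 (adjusted p = 0.219) and -1.80 (adjusted p = 0.00015).

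Adamts13, the protease that cuts von Willebrand factor (ENSMUSG00000014852.16, chromosome 2, 26973416 to 27009628, plus strand), was the least counted member. It had 74 counts over the 5 brain libraries at 0 hr, at 0.359 to 0.827 CPM, 4 counts over the 4 lung libraries and 0 counts over the 5 heart libraries. With the heart set at a floor of 3 counts over the group, the pooled brain level was at least 26.7-fold higher, and such intervals and floors cover counting error only. Over all times it had 260 counts in 28 brain libraries and 68 in 24 lung libraries, of which 12 held none, and 0 of 28 heart libraries held a count. In heart a count of 0 at 0 hr allows up to 0.031 CPM of pooled counts. The brain minus lung call (adjusted p = 0.0119) was lost without lung replicate 3 (adjusted p = 0.0613) and held without replicate 4 (adjusted p = 0.000524), and the lung minus heart call (adjusted p = 0.0326) was lost without lung replicate 4 or heart replicate 4 or 5 (adjusted p = 0.0526 to 0.175) and with the mouse as a block (adjusted p = 0.233). The gene passed the low-count filter in brain but not in the lung or heart fits after LPS. In brain its log2 changes ran from -1.24 ± 0.54 at 48 hr (adjusted p = 0.118) to -0.24 ± 0.70 at 24 hr, and no time passed the test.

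Plat, the tissue plasminogen activator (ENSMUSG00000031538.6, chromosome 8, 22757727 to 22782844, plus strand), stood at 132 to 217 CPM in brain, 92.9 to 134 CPM in heart and 11.9, 39.3, 45.4 and 140.3 CPM in lung. Brain exceeded lung 2.89-fold (log2 1.53 ± 0.46, adjusted p = 0.00905; 2.36 without lung replicate 4), whereas lung minus heart was -0.94 (adjusted p = 0.0852), -1.75 without lung replicate 4 (adjusted p = 0.000295) and -1.81 with the mouse as a block (adjusted p = 0.000488). Plau, urokinase (ENSMUSG00000021822.3, chromosome 14, 20836660 to 20843385, plus strand), was ordered heart, lung, brain with no overlap. It stood at 32.0 to 38.3 CPM in heart, 16.2 to 24.2 CPM in lung and 2.01 to 3.27 CPM in brain. Brain was 7.97-fold below lung and 13.3-fold below heart (log2 -2.99 and -3.74, both SE 0.21, adjusted p = 2.87e-08 and 1.5e-09), and lung was 1.68-fold below heart (adjusted p = 0.00533). Plaur, the urokinase receptor (ENSMUSG00000046223.10, chromosome 7, 24462484 to 24475968, plus strand), was ordered lung, heart, brain. Its values were 72.5, 65.2, 79.0 and 173 CPM in lung, 21.5, 27.0, 18.3, 24.5 and 22.9 CPM in heart, and 4.94, 6.96, 2.72, 4.28 and 2.41 CPM in brain. Brain was 23.1-fold below lung and 5.89-fold below heart (adjusted p = 1.68e-08 and 1.37e-06), and lung was 3.93-fold above heart (adjusted p = 3.02e-05).

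After LPS the members moved in different directions and at different times. Plaur rose in brain and heart from 6 hr, Procr rose in all 3 tissues by 24 hr, Plat rose in brain and heart at 24 hr, and F3 rose in heart at 6 hr. Thbd fell in lung and heart at 6 hr and in brain at 24 and 48 hr, and Tfpi, Vwf and Plau fell in heart at 6 hr. In brain 1 of 9 members passed the test at 6 hr, where 6.44% of the 19234 genes tested did, 4 at 24 hr against 11.2%, 3 at 48 hr against 14.2% and 3 at 72 hr against 3.53%. Without the series 1 library at 6 hr these counts were 3, 4, 4 and 3. In lung 2 of the 8 members tested passed at 6 hr against 4.83% of 17058 genes, 1 at 24 hr against 0.375%, and 1 at 48 hr against 0.598%. In heart 6 of 8 passed at 6 hr, where 42.8% of 16024 genes did, 4 at 24 hr against 16.2%, and 2 at 48 hr against 4.19%. Without the series 1 library at 6 hr they were 6, 6 and 3, and in lung 2, 1 and 1 with 1 more at 72 hr. None passed in lung at 72 hr (0.193% of genes) or 168 hr (0.0117%), in heart at 72 hr (0.275%) or 168 hr (0.0%), or in brain at 168 hr (0.0%). For these comparisons edgeR gave an unadjusted p under 0.05 for 1 member in lung and 1 in heart at 72 hr and for 0 at 168 hr in each tissue, DESeq2 called 1 member in lung at 72 hr and limma-voom called 0. All times of a tissue share its 0 hr libraries. Over all genes tested in brain, 1.81%, 19.2%, 4.90% and 6.88% did not overlap the 0 hr libraries at 6, 24, 48 and 72 hr. In lung these shares were 10.4%, 25.0%, 4.18% and 7.49%, and in heart 8.21%, 37.7%, 7.79% and 3.56%. The median change of all genes in lung at 6 hr was -0.42 with TMM and -0.11 with RLE scaling, and at 168 hr 0.00 and 0.15, without a change in any member's call.

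**Figure D2:**
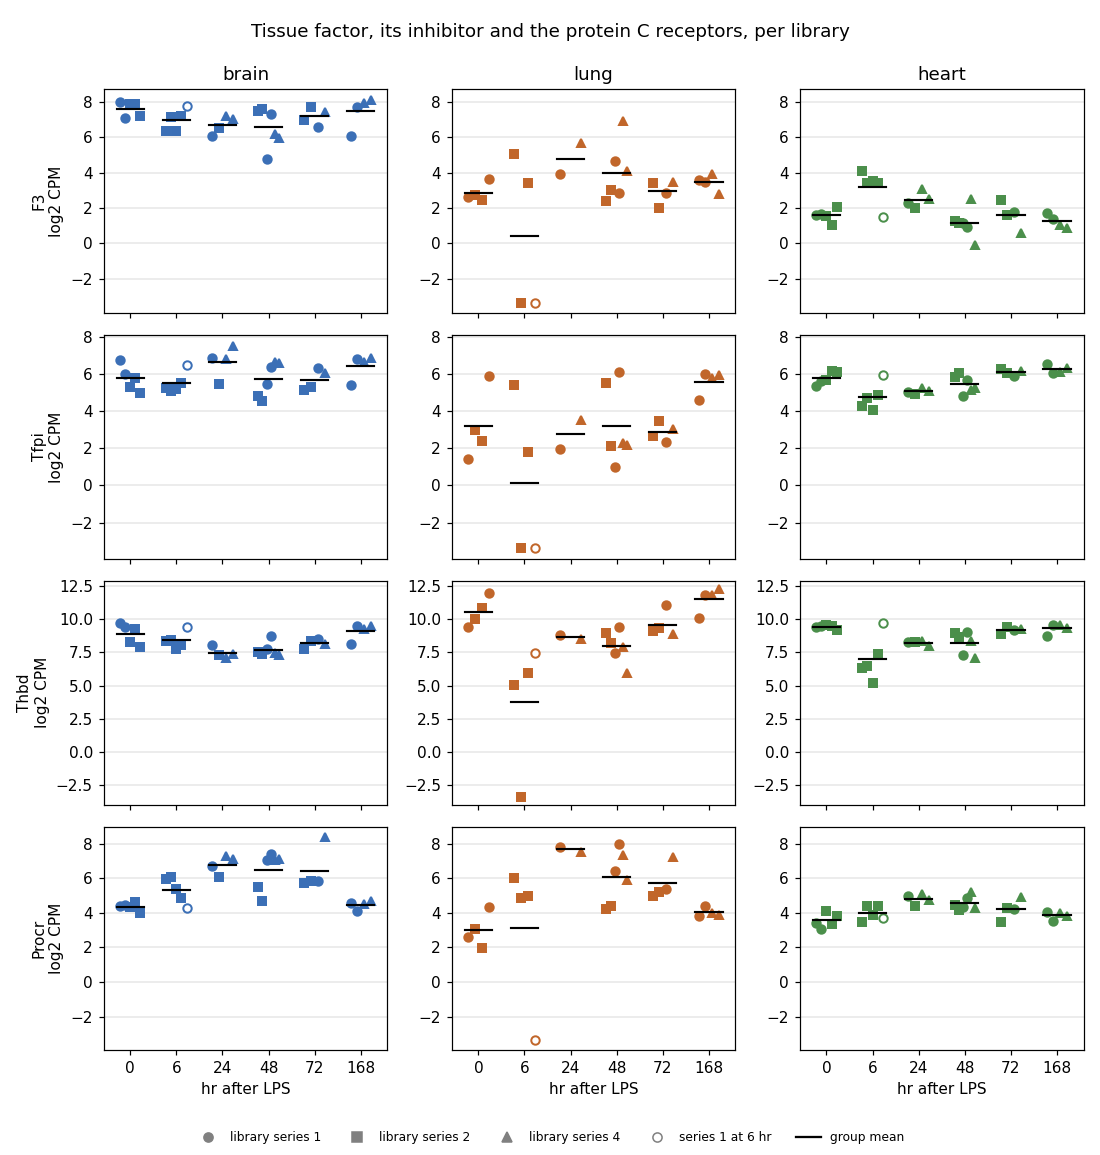
log2 CPM (TMM-scaled, prior count of 2 counts scaled to library size, so that 0 counts lie at -3.35) of F3, Tfpi, Thbd and Procr in every library by hr after LPS, with 1 column per tissue, marker shape for the library series, open circles for the series 1 libraries at 6 hr and a black line for the group mean. Thbd lies below its 0 hr points at 6 hr in every lung library and in all heart libraries but the open one, and Procr is raised at 24 hr in all 3 tissues.

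The promoter windows of the 3 members that rose and have an entry in RefSeq (GRCm38.p6, the mm10 assembly) are shown so that their sequence can be read beside their response. Each covers 250 bases before to 50 bases after the start, on the plus strand. Tfpi (2 entries) and Adamts13 are the other members with an entry, and Thbd, Vwf, Plat and Plau have none. Capitals mark matches on either strand to TGACTCA, the letters bound by AP-1, or to GGNNTTTCC, a κB-type pattern.
F3, chr3:121723287-121723586: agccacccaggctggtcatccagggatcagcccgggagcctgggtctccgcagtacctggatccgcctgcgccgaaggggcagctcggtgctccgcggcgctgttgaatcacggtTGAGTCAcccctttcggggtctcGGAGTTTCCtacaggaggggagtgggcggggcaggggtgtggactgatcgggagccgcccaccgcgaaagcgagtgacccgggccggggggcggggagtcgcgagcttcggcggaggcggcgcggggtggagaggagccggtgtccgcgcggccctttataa
Procr, chr2:155750967-155751266: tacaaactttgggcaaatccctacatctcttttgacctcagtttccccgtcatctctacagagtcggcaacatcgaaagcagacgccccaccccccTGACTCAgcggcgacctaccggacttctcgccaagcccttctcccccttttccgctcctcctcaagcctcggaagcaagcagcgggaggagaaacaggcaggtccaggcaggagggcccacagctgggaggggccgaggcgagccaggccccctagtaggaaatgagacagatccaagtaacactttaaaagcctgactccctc
Plaur, chr7:24462233-24462532: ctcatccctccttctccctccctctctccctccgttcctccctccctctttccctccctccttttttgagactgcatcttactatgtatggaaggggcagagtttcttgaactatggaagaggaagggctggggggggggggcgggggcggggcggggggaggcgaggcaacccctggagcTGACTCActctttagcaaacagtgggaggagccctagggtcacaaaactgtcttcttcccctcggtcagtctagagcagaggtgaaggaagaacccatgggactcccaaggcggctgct
The AP-1 letters lie at -135 to -129 in F3, -154 to -148 in Procr and -69 to -63 in Plaur, counted with the start base as 0, and the κB-type letters at -112 to -104 in F3. They do not overlap. The start is that of the promoter entry, which for Procr lies downstream of the gene start given above, 155751117. Of 32851 promoter windows 5.20% hold the AP-1 letters, 5.82% the κB-type letters and 0.332% both. The windows of Tfpi and Adamts13 hold neither. These are matches of letters, not measured binding.

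F3 rose in heart at 6 hr. Its level there was 17.4, 10.4, 11.6, 10.5 and 2.68 CPM at 6 hr against 1.98 to 4.08 CPM at 0 hr. The 4 series 2 libraries lay above every 0 hr library, and only replicate 5, of series 1, did not. The change was 3.31-fold (log2 1.73 ± 0.46, adjusted p = 0.00538) with all libraries and log2 2.08 (adjusted p = 0.000235) without that one, and the difference within series was 2.05 in series 2 and -0.14 in series 1. At 24 hr the heart libraries held 4.72, 3.99, 8.45 and 5.57 CPM (log2 0.98 ± 0.51, adjusted p = 0.172). In brain, where F3 was highest at the start, the means were 205 ± 56.5 CPM at 0 hr (SD, n = 5), 135 ± 57.4 at 6 hr (n = 5), 109 ± 36.5 at 24 hr (n = 4) and 204 ± 94.4 at 168 hr (n = 4), and no time passed the test (at 24 hr log2 -1.01 ± 0.51, adjusted p = 0.202). Lung libraries at 6 hr held 32.9, 0, 10.5 and 0 CPM, with 0 counts in the shallow replicates 2 and 4, and at 24 hr 15.4 and 50.5 CPM against 5.39 to 12.2 CPM at 0 hr (log2 1.03 ± 1.01, adjusted p = 1).

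Tfpi fell in heart at 6 hr, where the libraries held 19.7, 26.5, 16.9, 29.0 and 60.6 CPM against 40.7 to 70.6 CPM at 0 hr. The last of these is replicate 5, the only 6 hr library within the 0 hr range. The fall was 1.83-fold (log2 -0.87 ± 0.27, adjusted p = 0.0138) and deepened to log2 -1.42 (adjusted p = 3.86e-06) without that library, with -1.48 within series 2 and 0.42 within series 1. At 24 hr the heart libraries held 33.0, 30.5, 38.0 and 34.2 CPM, all below the 0 hr range, with log2 -0.68 ± 0.32 (adjusted p = 0.128) or -0.60 without the series 1 library at 6 hr (adjusted p = 0.044). In brain the group means ran from 48.6 to 114 CPM with log2 changes from -0.43 to 0.26 and no call, and in lung single libraries ran from 0 to 70.3 CPM with no call. General EC genes moved the same way in heart at 6 hr. Of the 8, 7 fell, and their sum spanned 2710 to 8238 CPM against 8005 to 9395 CPM at 0 hr, and their part in the falls of Tfpi, Thbd, Vwf and Plau in heart was not tested.

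Thbd had the deepest fall of the 8 genes tested in lung. At 6 hr the lung libraries held 33.4, 0, 63.1 and 173 CPM, where the 173 CPM are 6 counts of the shallow replicate 4, against 667 to 4046 CPM at 0 hr. Every 6 hr library lay below every 0 hr library. The fall was 35.7-fold (log2 -5.16 ± 1.00, adjusted p = 0.00373) and log2 -5.59 without replicate 4 (adjusted p = 0.00486). The share of reads on genes was 6.93%, 8.12%, 33.9% and 3.40% in these 4 libraries and 18.8% to 56.2% at 0 hr, and its part in the fall was not tested. Replicate 3, at 33.9%, held 63.1 CPM. Thbd held 458 and 358 CPM in the 2 lung libraries at 24 hr (log2 -2.10 ± 1.18, adjusted p = 0.935), 63.0 to 672 CPM at 48 hr, 484 to 2138 CPM at 72 hr and 1062 to 5005 CPM at 168 hr, and none of these times passed. In lung at 6 hr 2 of 8 general EC genes fell, with sums of 1445 to 9694 CPM against 6261 to 10877 CPM at 0 hr, and neutrophil genes rose in 4 of 6 cases, from at most 203 CPM to at most 3587 CPM in sum, and the part of either in these values was not tested.

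In heart Thbd stood at 80.8, 87.0, 37.3, 169 and 843 CPM at 6 hr against 577 to 760 CPM at 0 hr. The first 4 lay below every 0 hr library and replicate 5, at 843 CPM, above them all. The change was log2 -1.68 ± 0.53 (3.20-fold lower, adjusted p = 0.0142) with it and -2.96 (adjusted p = 6.27e-07) without it, with -3.07 within series 2. At 24 hr the heart held 304, 308, 328 and 254 CPM, all below the 0 hr range, at log2 -1.21 ± 0.59 (adjusted p = 0.144) or -1.10 without the series 1 library at 6 hr (adjusted p = 0.0313). By 72 hr it held 476 to 690 CPM and by 168 hr 423 to 764 CPM. In brain the fall came later. Libraries at 24 hr held 264, 160, 132 and 164 CPM against 234 to 846 CPM at 0 hr (2.95-fold lower, log2 -1.56 ± 0.34, adjusted p = 0.0052), and at 48 hr 160 to 432 CPM with a median of 179 CPM (log2 -1.25 ± 0.29, adjusted p = 0.00729). The difference at 24 hr was -1.53 within series 1 and -1.15 within series 2. Of the 4 brain EC genes 3 fell at 24 hr, with sums of 953 to 1614 CPM against 1737 to 3206 CPM at 0 hr. At 48 hr 1 of the 4 fell, with sums of 1388 to 2047 CPM. Of the 8 general EC genes 1 fell and 0 rose in brain at 24 hr, with sums of 1816 to 3384 CPM against 1456 to 3009 CPM at 0 hr. At 48 hr 2 of the 8 rose and 0 fell, with sums of 2366 to 4095 CPM. The part of either list in the Thbd fall was not tested. At 6 hr brain libraries held 331, 354, 220, 267 and 676 CPM, which did not pass (log2 -0.43 ± 0.30, adjusted p = 0.509).

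Procr, the partner receptor of thrombomodulin in protein C activation, moved the other way. In brain it stood at 20.6, 21.4, 20.4, 24.6 and 15.5 CPM at 0 hr and at 105, 66.2, 153 and 138 CPM at 24 hr, 25.6 to 167 CPM at 48 hr, and 52.1, 57.6, 56.9 and 334 CPM at 72 hr. Each library of these times lay above every 0 hr library. The rises were 3.45-fold (log2 1.79 ± 0.44, adjusted p = 0.0109), 3.58-fold (1.84 ± 0.41, adjusted p = 0.00553) and 3.98-fold (1.99 ± 0.43, adjusted p = 0.00725). Within series 1 and 2 they were 2.32 and 1.73 at 24 hr, 2.81 and 0.78 at 48 hr, and 1.44 and 1.46 at 72 hr. The 24 hr call was lost without replicate 2 of that time (log2 1.75, adjusted p = 0.0581). The 6 hr libraries held 62.7, 66.4, 41.1, 29.0 and, in replicate 6 of series 1, 19.1 CPM, with log2 1.25 ± 0.40 (adjusted p = 0.0631) that became 1.58 (adjusted p = 0.00284) without replicate 6. At 168 hr the brain libraries were back at 16.9 to 26.0 CPM.

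In lung Procr stood at 6.09, 8.30, 3.75 and 19.9 CPM at 0 hr, and at 63.9, 29.1 and 31.5 CPM at 6 hr in the series 2 libraries and at 0 counts in the shallow replicate 4. At 24 hr the 2 libraries held 227 and 180 CPM, and at 48 hr 18.3 to 253 CPM. The rises were 5.64-fold at 6 hr (log2 2.50 ± 0.68, adjusted p = 0.0287; 2.89 without replicate 4, adjusted p = 0.011), 13.3-fold at 24 hr (3.73 ± 0.79, adjusted p = 0.0198) and 7.12-fold at 48 hr (2.83 ± 0.65, adjusted p = 0.0333). The difference was 2.78 within series 2 at 6 hr, 4.36 within series 1 at 24 hr, and 3.73 and 1.79 within series 1 and 2 at 48 hr. Procr was the one member called in lung at 24 and 48 hr. These calls rested on few libraries, and limma-voom gave an adjusted p = 0.0521 at 6 hr. That at 6 hr was lost without 0 hr replicate 1 or 3 or 6 hr replicate 1 (log2 2.15 to 2.32, adjusted p = 0.0643 to 0.118), that at 24 hr without 0 hr replicate 1, 3 or 4 or either 24 hr library (3.37 to 3.98, adjusted p = 0.088 to 0.491), and that at 48 hr without any 0 hr library or 48 hr replicate 3, 4 or 6 (2.24 to 3.12, adjusted p = 0.0577 to 0.159). At 72 hr the libraries held 31.4, 37.0, 41.8 and 152 CPM, each above the 0 hr range, at log2 2.74 ± 0.66 (adjusted p = 0.0681; 0.049 without the series 1 library at 6 hr).

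In heart the rise of Procr was smaller. From 8.41 to 17.4 CPM at 0 hr it stood at 30.8, 21.1, 33.6 and 26.7 CPM at 24 hr and at 18.0 to 37.0 CPM at 48 hr, all above the 0 hr range. The changes were 2.01-fold (log2 1.01 ± 0.28, adjusted p = 0.0195) and 1.81-fold (0.85 ± 0.25, adjusted p = 0.04997), with 1.69 and 0.64 within series 1 and 2 at 24 hr and 1.33 and 0.54 at 48 hr. The first was lost without 0 hr replicate 2 or 24 hr replicate 1 or 2 (log2 0.86 to 1.12, adjusted p = 0.0508 to 0.0717) and the second without 0 hr replicate 1, 2, 4 or 5 or 48 hr replicate 1, 3, 4 or 6 (0.71 to 0.91, adjusted p = 0.0668 to 0.18), and the second was not called by limma-voom (0.79, adjusted p = 0.112). At 6 hr the heart libraries held 11.2 to 21.1 CPM (log2 0.41 ± 0.25, adjusted p = 0.174).

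**Figure D3:**
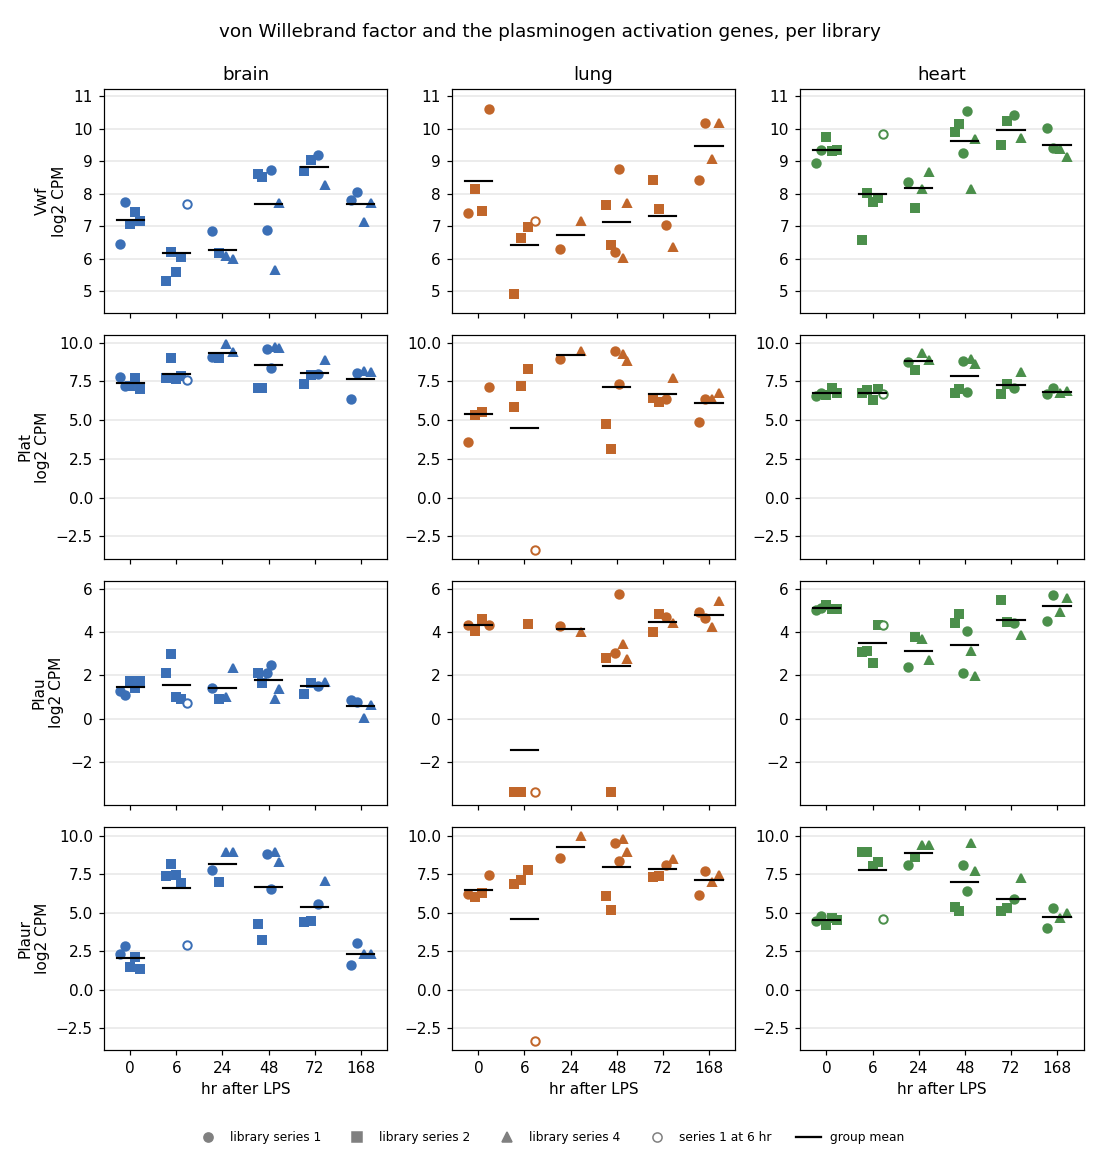
log2 CPM (scaled as for the first 4 genes, with 0 counts at -3.35) of Vwf, Plat, Plau and Plaur in every library by hr after LPS, with 1 column per tissue, marker shape for the library series, open circles for the series 1 libraries at 6 hr and a black line for the group mean. In brain and heart the filled Plaur points at 6 and 24 hr lie far above 0 hr, and the filled Vwf points at 6 hr lie below those at 0 hr.

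Vwf, which tethers platelets to the vessel wall, rose in brain at 72 hr. The libraries held 87.9 to 215 CPM at 0 hr, 39.8, 74.1, 48.1 and 66.6 CPM at 6 hr in series 2, and 205 CPM in replicate 6 of series 1. With replicate 6 the 6 hr change was log2 -0.86 ± 0.39 (adjusted p = 0.234) and without it -1.45 (adjusted p = 0.0105). At 72 hr the libraries held 421, 530, 589 and 311 CPM, all above the 0 hr range, a rise of 3.47-fold (log2 1.79 ± 0.42, adjusted p = 0.0137), which was 2.10 within series 1 and 1.65 within series 2. The 48 hr libraries spread from 50.9 to 428 CPM, with log2 0.97 ± 0.39 (adjusted p = 0.09), which passed without replicate 3 (1.17, adjusted p = 0.0468), without replicate 6 (1.13, adjusted p = 0.0328) or without the series 1 library at 6 hr (1.00, adjusted p = 0.0444). Of the 8 general EC genes 4 fell and 1 rose in brain at 6 hr, and 3 rose at 72 hr, with sums of 2782 to 4559 CPM against 1456 to 3009 CPM at 0 hr, and their part in the Vwf values was not tested.

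In heart Vwf stood at 95.8, 258, 215, 235 and 913 CPM at 6 hr against 490 to 865 CPM at 0 hr. The 4 series 2 libraries lay below the 0 hr range and replicate 5 above it. The fall was 2.04-fold (log2 -1.03 ± 0.40, adjusted p = 0.0427) and log2 -1.67 without replicate 5 (adjusted p = 0.000343). The call over all libraries was lost without 0 hr replicate 3, 4 or 5 or 6 hr replicate 1, 2, 3 or 4 (log2 -0.99 to -0.79, adjusted p = 0.0724 to 0.124). At 24 hr the heart libraries held 332, 191, 283 and 404 CPM (log2 -1.06 ± 0.49, adjusted p = 0.122) and at 72 hr 727 to 1386 CPM. In lung the 6 hr libraries held 30.5, 99.0, 127 and 144 CPM against 169 to 1574 CPM at 0 hr, at log2 -2.39 ± 0.80 (adjusted p = 0.0752), or -2.83 without 6 hr replicate 3 (adjusted p = 0.0179).

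Plat, the main plasminogen activator of ECs, rose at 24 hr in brain and heart. Brain libraries went from 132 to 217 CPM at 0 hr to 542, 513, 954 and 677 CPM, and heart libraries from 92.9 to 134 CPM to 424, 299, 636 and 480 CPM. In both tissues every 24 hr library lay above every 0 hr library, where 19.2% of all genes in brain and 37.7% in heart did not overlap. The rises were 2.59-fold in brain (log2 1.37 ± 0.42, adjusted p = 0.0349) and 3.01-fold in heart (1.59 ± 0.33, adjusted p = 0.00413). Within series 1 and 2 they were 1.59 and 1.68 in brain and 2.07 and 1.42 in heart. The brain call was lost without 0 hr replicate 1, 2, 3 or 5 or 24 hr replicate 1 or 2 (log2 1.15 to 1.45, adjusted p = 0.0584 to 0.171). The 2 lung libraries at 24 hr held 497 and 697 CPM against 11.9 to 140.3 CPM at 0 hr, without a call (log2 2.43 ± 1.10, adjusted p = 0.754). At 6 hr Plat was at 190 to 519 CPM in brain (log2 0.77, adjusted p = 0.295) and 79.3 to 129 CPM in heart (0.07, adjusted p = 0.858).

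At 48 hr the Plat libraries were widely spread. In brain the series 2 libraries held 133 and 133 CPM and the others 758, 326, 855 and 822 CPM, and in heart the series 2 libraries held 106 and 132 CPM, series 1 replicate 4 held 111 CPM and the other 3 held 450.4, 498 and 400.4 CPM. The differences from 0 hr were -0.27 within series 2 and 1.46 within series 1 in brain, and 0.08 and 1.14 in heart. The fits gave log2 0.99 ± 0.40 in brain (adjusted p = 0.0902) and 0.92 ± 0.31 in heart (adjusted p = 0.0859), and each passed without 1 of 2 libraries, which were brain replicate 1 or 2 (1.25 and 1.24, adjusted p = 0.0346 and 0.0325) and heart replicate 1 or 4 (1.13 and 1.09, adjusted p = 0.0372 and 0.0335).

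Plau, the urokinase gene, fell in heart. It held 8.45, 8.50, 5.92, 19.7 and 19.8 CPM at 6 hr and 5.15, 13.5, 12.7 and 6.52 CPM at 24 hr, all below the 32.0 to 38.3 CPM at 0 hr. The falls were 2.80-fold (log2 -1.48 ± 0.43, adjusted p = 0.00902; -2.02 without 6 hr replicate 5) and 2.81-fold (-1.49 ± 0.51, adjusted p = 0.0486). The difference at 6 hr was -0.74 within series 1 and -1.87 within series 2, so that here the series 1 library moved the same way. The 24 hr call was lost without any single 0 hr library or 24 hr replicate 1, 2 or 5 (log2 -1.54 to -1.14, adjusted p = 0.0651 to 0.166). At 48 hr the values were 3.84 to 28.1 CPM (log2 -1.21 ± 0.41, adjusted p = 0.0938), which passed without 48 hr replicate 2 (-1.47, adjusted p = 0.0413) or the series 1 library at 6 hr (-1.23, adjusted p = 0.0399). In brain Plau stayed between 0.945 and 7.82 CPM over all times with no call. In lung 3 of the 4 libraries at 6 hr had 0 counts and replicate 3 held 20.7 CPM, against 16.2 to 24.2 CPM at 0 hr (adjusted p = 0.552; 0.00553 without replicate 3, where a fold against 0 counts has no meaning).

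Plaur, which holds urokinase at the cell surface, had the largest change of the members in brain and in heart. In brain it went from 4.94, 6.96, 2.72, 4.28 and 2.41 CPM at 0 hr to 164, 289, 178 and 122 CPM in the series 2 libraries at 6 hr, with 7.32 CPM in replicate 6 of series 1. It stood at 219, 125, 496 and 491 CPM at 24 hr, 9.07 to 494 CPM at 48 hr, 20.7, 21.5, 46.7 and 134 CPM at 72 hr, and 2.98 to 7.89 CPM at 168 hr. From 6 to 72 hr every library lay above every 0 hr library, and at 168 hr the groups overlapped. The rises were 54.3-fold (log2 5.76 ± 0.85, adjusted p = 0.000199; 6.24 without replicate 6), 36.0-fold (5.17 ± 0.85, adjusted p = 0.000553), 24.4-fold (4.61 ± 0.83, adjusted p = 0.00116) and 7.96-fold (2.99 ± 0.77, adjusted p = 0.0264). The difference at 6 hr was 5.83 within series 2 and 0.32 within series 1, whereas at 24 hr it was 5.31 and 5.20. The 72 hr call was lost without 0 hr replicate 1, 2, 3 or 5 or 72 hr replicate 2, 3 or 5 (log2 2.87 to 3.11, adjusted p = 0.0502 to 0.0765) and with limma-voom (2.88, adjusted p = 0.236).

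In heart Plaur went from 18.3 to 27.0 CPM at 0 hr to 491, 497, 261 and 315 CPM in series 2 at 6 hr, with 23.8 CPM in replicate 5 of series 1, and to 268, 388, 667 and 662 CPM at 24 hr. The rises were 15.4-fold (log2 3.95 ± 0.66, adjusted p = 0.000117; 4.40 without replicate 5) and 12.5-fold (3.64 ± 0.66, adjusted p = 0.0017). At 48 hr the series 2 libraries held 41.4 and 33.7 CPM and the others 83.3 to 725 CPM, a 5.31-fold rise (2.41 ± 0.63, adjusted p = 0.0307) that was 0.78 within series 2 and 2.63 within series 1 and was lost without any single 0 hr library or 48 hr replicate 3 or 6 (log2 2.00 to 2.47, adjusted p = 0.0506 to 0.107) or with limma-voom (2.00, adjusted p = 0.119). In lung, where Plaur was highest at the start, the libraries held 114, 138, 217 and 0 CPM at 6 hr and 379 and 1018 CPM at 24 hr, against 65.2 to 173 CPM at 0 hr. Neither passed the test (log2 0.78 ± 0.72, adjusted p = 0.537, and 1.90 ± 0.90, adjusted p = 0.806), and 0 of the 5 times in lung gave a call for Plaur with edgeR, DESeq2 or limma-voom. Genes of myeloid cells moved at the same times. In brain the 6 macrophage and monocyte genes summed to at most 65.4 CPM at 0 hr, and 1 of 6 rose at 6 hr (23.4 to 371 CPM), 2 at 24 hr (200.1 to 411 CPM), 6 at 48 hr (197 to 418 CPM) and 5 at 72 hr (121 to 266 CPM). Of 5 neutrophil genes tested in brain 4 rose at 48 hr, to 47.4 to 175 CPM from at most 44.2 CPM. In heart 2 of the 6 macrophage and monocyte genes rose at 6 hr (1 fell), 3 at 24 hr and 4 at 48 hr, with sums of at most 157, 46.9 and 297 CPM against at most 44.5 CPM at 0 hr. Of 5 neutrophil genes in heart 5, 4 and 5 rose at these times, to at most 57.8, 30.0 and 43.7 CPM from at most 0.877 CPM. Their part in the Plaur values was not tested.

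**Figure D4:**
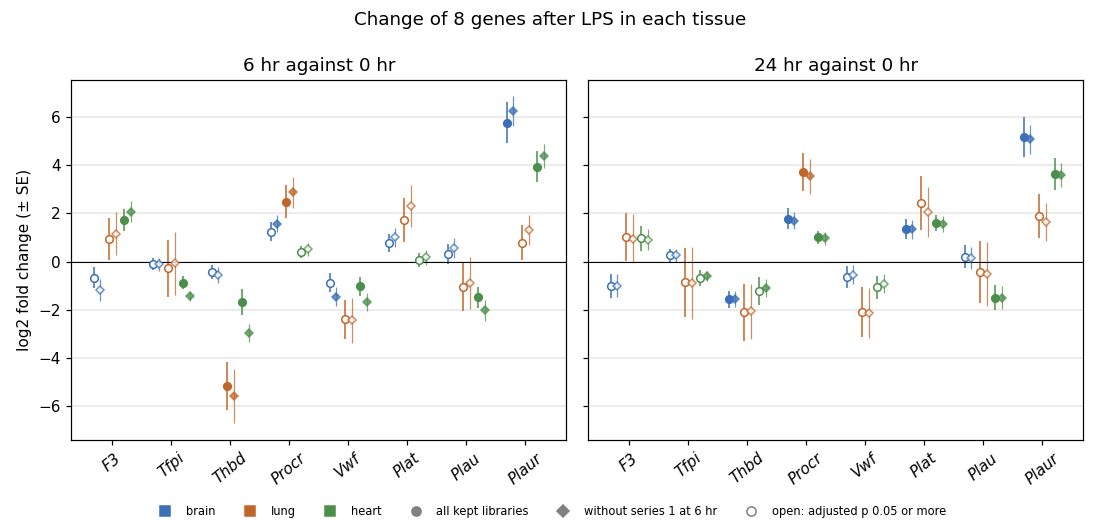
log2 fold change with its SE of 8 of the genes at 6 hr (left) and 24 hr (right) against 0 hr in brain (blue), lung (orange) and heart (green), from edgeR fits of all kept libraries (circles) and of those without the series 1 libraries at 6 hr (diamonds), with open symbols where the adjusted p was 0.05 or more. Plaur stands at 5.76 in brain and 3.95 in heart at 6 hr, and Thbd in lung at -5.16.

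Whether a response differed between tissues was tested as an interaction in 1 fit of all 80 libraries. At 6 hr 2 of 9 members differed between brain and lung, where 13.3% of the 22007 genes did, 3 of 9 between lung and heart against 18.1%, and 0 of 9 between brain and heart against 0.636%. At 24 hr the counts were 1 of 9 against 3.85% for brain and lung, 1 of 9 against 1.67% for lung and heart, and 0 of 9 against 0.327% for brain and heart. Between brain and heart edgeR gave an unadjusted p under 0.05 for 2 members at 6 hr and 3 at 24 hr, and DESeq2 and limma-voom called 0 at both times. Of the 7 calls in all, limma-voom kept 4 and lost Procr (adjusted p = 0.0778) and Plaur (0.119) for lung and heart at 6 hr and F3 (0.0959) for brain and lung at 24 hr. The Thbd fall at 6 hr was deeper in lung than in heart (lung minus heart log2 -3.41 ± 0.85, adjusted p = 0.00319, or -2.77 without the series 1 libraries at 6 hr). It also differed from the change in brain (brain minus lung 4.72 ± 0.86, adjusted p = 0.000169), where Thbd did not pass at 6 hr. The Plaur rise at 6 hr was larger in brain (brain minus lung 4.65 ± 0.98, adjusted p = 0.00085) and in heart (lung minus heart -3.17 ± 0.95, adjusted p = 0.0142) than in lung. The brain minus lung difference for Plaur at 24 hr was 3.55 ± 1.16 (adjusted p = 0.0675), and passed without lung 0 hr replicate 1 (3.91, adjusted p = 0.047) or without the series 1 libraries at 6 hr (3.77, adjusted p = 0.00793).

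The Procr rise was larger in lung than in heart at 6 hr (lung minus heart 1.92 ± 0.67, adjusted p = 0.0361) and at 24 hr (3.31 ± 0.73, adjusted p = 0.00598). The first was lost without heart 0 hr replicate 3 or 5, heart 6 hr replicate 1 or 3, lung 0 hr replicate 1, 2 or 3 or lung 6 hr replicate 1 (1.43 to 1.97, adjusted p = 0.0551 to 0.184), and the second without lung 24 hr replicate 3 (3.79, adjusted p = 0.0569). Brain minus lung for Procr at 24 hr was -2.03 (adjusted p = 0.105), or -2.49 without lung 0 hr replicate 4 (adjusted p = 0.0378). F3 differed between brain and lung at 24 hr (-2.96 ± 0.89, adjusted p = 0.0406), a call lost without brain 0 hr replicate 1, 3 or 4, any brain 24 hr library, lung 0 hr replicate 1, 2 or 3 or lung 24 hr replicate 3 (-3.05 to -2.10, adjusted p = 0.0575 to 0.662). The brain minus heart difference for F3 at 6 hr was -2.39 ± 0.75 (adjusted p = 0.132), and -2.66 without heart 6 hr replicate 5 (adjusted p = 0.017), or -2.84 without all 3 series 1 libraries at 6 hr (adjusted p = 0.0142). Thbd between brain and heart at 6 hr passed without heart replicate 5 (2.27, adjusted p = 0.0335, against 1.31 and 0.499). It did not pass without all 3 series 1 libraries at 6 hr (2.14, adjusted p = 0.0615). Plat between lung and heart at 6 hr passed without lung 0 hr replicate 4 (2.14, adjusted p = 0.0493, against 1.55 and 0.16). The median of all genes in these differences was 0.40 for brain minus lung and -0.37 for lung minus heart at 6 hr (0.22 and -0.21 with RLE scaling), and 0.05 and -0.09 at 24 hr (-0.11 and 0.09 with RLE).

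The wider pathway was read from a list of 50 other genes of clotting, anticoagulation and fibrinolysis. In brain 7 of the 35 list genes tested passed at 6 hr (7 higher, 0 lower) and 10 of 35 at 24 hr (8 and 2), with medians of 0.10 and 0.19 on the log2 scale against 0.00 and -0.03 over all genes. In lung 8 of 35 passed at 6 hr (7 and 1) and 0 of 35 at 24 hr, with medians of -0.08 and -0.26 against -0.42 and -0.12. In lung at 24 hr edgeR gave an unadjusted p under 0.05 for 3 list genes, DESeq2 called 2 and limma-voom 0. In heart 14 of 26 passed at 6 hr (9 and 5) and 6 of 26 at 24 hr (4 and 2), with medians of -0.18 and 0.10 against -0.05 and -0.04. Without the series 1 libraries at 6 hr 12 list genes of brain passed at 6 hr, 8 of lung and 17 of heart. The shares of all genes that passed in these comparisons are those given for the members.

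Many of the list genes named here were of low level. Serpina10, the protein Z-dependent inhibitor of activated factor X, rose in brain from 0.0429 ± 0.0779 to 2.27 ± 1.65 CPM at 6 hr (mean ± SD, n = 5) and 1.86 ± 2.05 CPM at 24 hr (adjusted p = 0.000536 and 0.0167). In lung it went from at most 0.29 CPM to at most 24.5 CPM at 6 hr (adjusted p = 0.0354). The lung mean at 6 hr was 6.44 ± 12.0 CPM (n = 4), and this level lay almost wholly in the highest library. Without the series 1 library the log2 change in brain at 6 hr was 8.17 against 7.19, and in lung 8.57 against 7.34. The brain call at 24 hr was lost without 0 hr replicate 2 or 24 hr replicate 1 or 2 (adjusted p up to 0.0763), and the lung call without 0 hr replicate 2 or 3 (up to 0.155). The fibrinogen chain genes Fga and Fgb had 0 counts in all brain libraries at 0 hr and reached at most 0.774 and 0.542 CPM at 6 hr (adjusted p = 0.0345 and 0.0111), and Fgb at most 3.43 CPM at 24 hr (adjusted p = 0.00419). Without brain 6 hr replicate 6 their log2 changes at 6 hr were 7.05 and 6.08 against 6.41 and 5.48, although a fold against 0 counts has no meaning as a size. The Fga call was lost without 0 hr replicate 2, 3, 4 or 5 or 6 hr replicate 1, 2 or 3 (adjusted p up to 0.0812), and limma-voom called neither gene at 6 hr (adjusted p = 0.0537 and 0.064). In lung Fga and Fgg reached at most 80.6 and 80.0 CPM at 6 hr, with 0 CPM in at least 1 library each (adjusted p = 0.0171 and 0.029). Their means were 20.2 ± 40.3 and 24.4 ± 37.8 CPM (SD, n = 4), and the Fga level lay almost wholly in the highest library. Without lung 6 hr replicate 4 the log2 change of Fga was 12.0 against 11.0. Both calls were lost without lung 0 hr replicate 2 or 3, and that of Fgg also without 6 hr replicate 1 (adjusted p up to 0.0761 and 0.161), and limma-voom gave Fga an adjusted p = 0.0651. In heart F10 (coagulation factor X) rose from 0.115 ± 0.0684 to 1.29 ± 0.897 CPM (log2 3.30, adjusted p = 0.00319) and F5 (factor V) from 0.0262 ± 0.0424 to 0.26 ± 0.171 CPM (log2 2.93, adjusted p = 0.0118; 3.54 without replicate 5) at 6 hr, and Serping1 (C1 inhibitor) from 26.7 ± 4.81 to 220 ± 136 CPM (log2 2.71, adjusted p = 0.00152) and Serpine2 (protease nexin 1, a thrombin inhibitor) from 19.5 ± 4.60 to 89.4 ± 26.0 CPM (log2 2.16, adjusted p = 0.0018) at 24 hr. F10 also passed as higher in brain and lung at 6 hr, and its level was highest in lung. Lung libraries held 0.86 to 33.4 CPM of F10 at 0 hr and 28.9 to 2930 CPM at 6 hr.

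Among the genes that fell in lung was Hs3st1, which makes the heparan sulfate that binds antithrombin. It went from 151 ± 53.7 CPM at 0 hr to 4.52 ± 5.30 CPM at 6 hr in lung (log2 -4.32 ± 0.76, adjusted p = 0.00183). In heart Hs3st1 passed in the other direction at 6 and 24 hr. Its heart means were 21.9 ± 1.96 CPM at 0 hr, 30.5 ± 7.21 CPM at 6 hr and 36.0 ± 9.32 CPM at 24 hr. Gas6, a vitamin K-dependent ligand of TAM receptors, fell in brain from 117 ± 14.9 to 41.9 ± 13.2 CPM at 24 hr (log2 -1.16, adjusted p = 0.00952) and in heart from 733 ± 30.1 to 266 ± 319 CPM at 6 hr (log2 -1.52, adjusted p = 0.013; -2.72 without replicate 5, adjusted p = 2.2e-07) and 130 ± 26.2 CPM at 24 hr (log2 -2.20, adjusted p = 0.0136). The last call was lost without heart 24 hr replicate 2 (adjusted p = 0.0783). F2rl1, a protease-activated receptor, fell at 24 hr in brain (log2 -2.35 ± 0.49, adjusted p = 0.00381) and heart (-1.77 ± 0.48, adjusted p = 0.0174), where the call was lost without 24 hr replicate 1 or 2 (adjusted p up to 0.114). In heart at 6 hr Entpd1, the ectonucleotidase CD39, changed by log2 -1.23 (adjusted p = 0.0112) and Mmrn2, an EC matrix protein, by -0.91 (adjusted p = 0.00798), and without replicate 5 these were -2.01 and -1.20. At 24 hr Entpd1 passed as higher in brain, with 127 ± 33.9 CPM against 41.3 ± 15.2 CPM at 0 hr. Heart libraries held 209 to 277 CPM of Entpd1 at 24 hr against 106 to 151 CPM at 0 hr, without a call.

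Over the 18 means of tissue and time, the log2 CPM of single genes ran alongside each member to different degrees. These correlations describe group means that share libraries, depth and tissue, and carry no p. Pearson's r was 0.981 and 0.980 for Tfpi with Arhgap5 and Scp2-ps2, 0.968 and 0.960 for F3 with Prkar1b and Kbtbd11, 0.959 and 0.956 for Thbd with Arrb1 and Meis1, and 0.950 and 0.933 for Plaur with Upp1 and Sbno2. It was 0.944 and 0.924 for Vwf with Bcam and Elk3, 0.942 and 0.941 for Plau with Notch4 and Npr1, 0.920 and 0.908 for Adamts13 with Fkbp2 and Fat1, 0.889 and 0.888 for Plat with Nek6 and Slc41a2, and 0.827 and 0.808 for Procr with Chkb and Ttc39b. Procr thus had the lowest best match of the 9, among 9022 genes compared.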

How the data were processed

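RNA was sequenced from the HA pull-downs. According to the submitters' processing notes the authors aligned reads to mm10 with STAR 2.4.2 and counted them with HTSeq 0.6.1, and they deposited raw read counts per gene for each sequencing run. The annotation release and strand setting are not given in the sources used here, and without strand, reads of a gene and an antisense partner cannot be told apart. No annotated gene overlaps a member in GENCODE M21. The 217 runs were summed to 98 libraries by tissue, time and replicate. The 18 libraries with under 3% of reads on genes were left out, and rows for unassigned reads stayed out of all library sizes.

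Counts were tested in R 4.3.3 with edgeR 4.0.16 (TMM scaling, filterByExpr by group, glmQLFit and glmQLFTest, two-sided, library series as a covariate) in 1 fit per tissue for changes after LPS, 1 for 0 hr and 1 of all libraries for differences between tissues, with Benjamini-Hochberg adjustment over all genes at 0.05. The SE is the log2 change over the square root of F. Alternatives used limma 3.58.1 (voom), DESeq2 1.42.0, RLE scaling, no filter, no covariate, replicate or mouse blocks (mice and library series read from file name patterns that the labels do not explain), other library sets and each library left out in turn. The fit without the series 1 libraries at 6 hr was added after seeing the data. Scripts were tested on simulated data. Python 3.11.15 with pandas 2.3.3 made the tables. The 9 members, the 50 pathway genes and the 14 marker lists (endothelial; brain, lung and heart endothelial; astrocyte; neuron; choroid plexus; mural cell and fibroblast; lung epithelial; cardiomyocyte; mesothelial; macrophage and monocyte; neutrophil; platelet and megakaryocyte) were chosen with earlier results of these data known. All members are described. Pathway genes were named by the size of their change among those past the threshold, and 1 gene of the list is not reported here by name. Numbers were checked for whether they pair libraries across times, and no comparison had every same-numbered pair correlated above 0.1.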

Additional observations from a re-analysis of the deposited data

Results flagged for a closer look

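In groups of 4 to 6 libraries, 16 of 146 gene and group sets had 1 library whose gap to its nearest neighbour, divided by the range of the group, passed Dixon's critical value for 95%. About 1 in 20 would do so by chance. At 6 hr the series 1 library was the lowest for F3 in heart (replicate 5, ratio 0.724), Procr in lung (replicate 4, 0.879), and Plaur in brain (replicate 6, 0.766), lung (replicate 4, 0.917) and heart (replicate 5, 0.788). At 168 hr replicate 1 was the lowest for Tfpi in brain (0.858) and lung (0.845), Thbd in brain (0.864) and Plat in brain (0.921). Libraries that were high alone were Thbd in brain at 48 hr, replicate 4 (0.690), Procr in brain at 72 hr, replicate 5 (0.947), Adamts13 in brain at 24 hr, replicate 2 (0.858), Plat in brain at 6 hr, replicate 2 (0.796), Plat in lung at 72 hr, replicate 5 (0.834), and Plau in lung at 6 hr, replicate 3 (1, since the other 3 libraries held 0 counts). Plau in lung at 48 hr was lowest, with 0 counts, in replicate 2 (0.668).

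The change after LPS differed between tissues by an interaction test (edgeR, adjusted p under the threshold) for 7 pairs. The log2 differences were 4.72 for Thbd (brain minus lung) and -3.41 (lung minus heart) at 6 hr, 4.65 for Plaur (brain minus lung) and -3.17 (lung minus heart) at 6 hr, 1.92 and 3.31 for Procr (lung minus heart) at 6 and 24 hr, and -2.96 for F3 (brain minus lung) at 24 hr.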

How the results depend on the processing

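The count of member calls after LPS was 11 of 45 in brain, 4 of 40 in lung and 12 of 40 in heart. It moved by over 1.5 times without the filter on low counts to 17 in brain and 7 in lung, with DESeq2 to 7 in lung, and with all 3 tissues in 1 fit to 7, 11 and 4. The 7 of 54 calls for differences between tissues became 4 with limma-voom. The pathway list calls at 6 and 24 hr, 17 of 70 in brain and 8 of 70 in lung, became 8 and 18 with all 3 tissues in 1 fit, and those in lung 4 with every library included. With the replicate number as a block brain, lung and heart had 8, 2 and 10 member calls and 11, 6 and 20 pathway calls, although the numbers were not shown to pair the libraries. With 1 library left out the member calls ranged from 9 to 13 in brain, 1 to 6 in lung and 8 to 13 in heart, those between tissues at 0 hr (20 of 27) from 15 to 20 and those for differences in response from 5 to 9, and the pathway calls from 12 to 22 in brain, 2 to 12 in lung and 17 to 23 in heart (20 of 52). Plau, lung minus heart at 6 hr, was 0.23 and reversed to -10.2 without lung 6 hr replicate 3 (up to 0.75 without another library), since the remaining lung libraries held 0 counts. Without the series 1 libraries at 6 hr, chosen after seeing the data, member calls were 14 in brain, 5 in lung and 15 in heart. RLE scaling changed no call of the 232 single results compared. The cause of these changes was not tested. Depth limits lung most, where 6 hr replicate 4 held 284457 counts and 24 hr has 2 libraries.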
